A study of Mus musculus with 34 samples.

Results

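The 39 genes described here are mouse counterparts of human chromosome 21 genes that the Dp16 duplication leaves at their normal copy number. They were chosen by gene symbol, with earlier results of these data known. Of 55385 genes listed, 28 members lie on mouse chromosome 10 between Pdxk and Prmt2 (76207222 to 78464975, GRCm38). The other 11 lie on chromosome 17 between Abcg1 and Rrp1b (31057675 to 32062865). Of the 39, 37 reached a mean of 0.5 CPM (counts scaled to a common library size) over all libraries and were tested. Ftcd, an enzyme of histidine and folate breakdown, and Hsf2bp, a meiotic protein, stayed below, at 0.023 and 0.183 CPM. The lowest mean above the limit was 2.91 CPM, for Slc37a1.

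The libraries are poly-A RNA-seq of brain cortex, 1 from each of 34 mice at 6 months of age. Wild-type C57BL/6J mice numbered 5 with sham treatment and 5 with tofacitinib, Dp16 mice 3 and 5, 5xFAD mice 4 and 5, and mice carrying both (5xFAD-Dp16) 3 and 4. Strain names beyond the wild-type one were not given in the sources used here. Tofacitinib, an inhibitor of Janus kinases, was given at 15 mg/kg by oral gavage every day for a month, and sham mice got the 0.5% methylcellulose vehicle in the same way. The mouse genome holds the counterparts of human chromosome 21 in blocks on chromosomes 16, 17 and 10. Dp16 mice carry an extra copy of the chromosome 16 block in every cell, so they model only that share of the trisomy of Down syndrome. The 5xFAD line carries mutant human amyloid precursor and presenilin transgenes expressed in neurons under Thy1 control, which produce plaques. The libraries held 16029841 to 21388650 counted reads; 16 mice were female. Wild-type sham 2 and 5xFAD tofacitinib 2 lay at opposite ends of the second principal component of log CPM, apart from the rest. Some averaged carrier results are given without both of them as well. Results for 5xFAD are given with single libraries left out, not without both. The summed level of 9 neuronal markers was 6553 to 14721 CPM, and that of 9 markers of the neighbouring striatum 394 to 2711 CPM. The lowest neuronal sum came from a mouse with 5xFAD and without Dp16. Mice with Dp16 had neuronal sums of 11240 to 13989 CPM, and mice without 5xFAD 10839 to 14721. No list specific to cortex was measured. No marker of the 14 cell type or region lists was at 0 in every library.

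A duplication can affect genes outside it through the products of the genes inside it, and genes on the other 2 blocks therefore serve as a same-origin reference with no dosage change of their own. Several members act in pathways studied in Down syndrome. Cystathionine β-synthase (Cbs) diverts homocysteine into cysteine synthesis, pericentrin (Pcnt) organises the centrosome, and S100b is a calcium-binding protein secreted by astrocytes. In human trisomy 21 these genes are present in an extra copy, while in Dp16 they are not. Per kilobase of transcript, the mean levels over all libraries were highest for Rrp1 (179 CPM per kb), S100b (174) and Agpat3 (42.2), and lowest for Col18a1 (0.525).

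Genes of the duplicated segment stood higher in carriers of Dp16, while the 37 members as a group stayed near the wild-type level. In each library the CPM of every gene was divided by its mean in wild-type sham mice. The median ratio over the 37 members was 1.01 ± 0.0359 (SD, n = 15, range 0.949 to 1.06) in the 15 carriers of Dp16 and 1.05 ± 0.0671 (SD, n = 19, range 0.877 to 1.15) in the 19 non-carriers, and the ranges overlapped. Over the 105 tested segment genes (App left out, since 5xFAD carries a human form of it) it was 1.45 ± 0.0420 (range 1.39 to 1.52) in carriers and 0.987 ± 0.0444 (range 0.912 to 1.07) in non-carriers, with no overlap. The 5xFAD sham mice had the highest member median, 1.13 ± 0.0416 (n = 4), and wild-type sham 2 had the lowest of all libraries, 0.877.

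**Figure D1:**
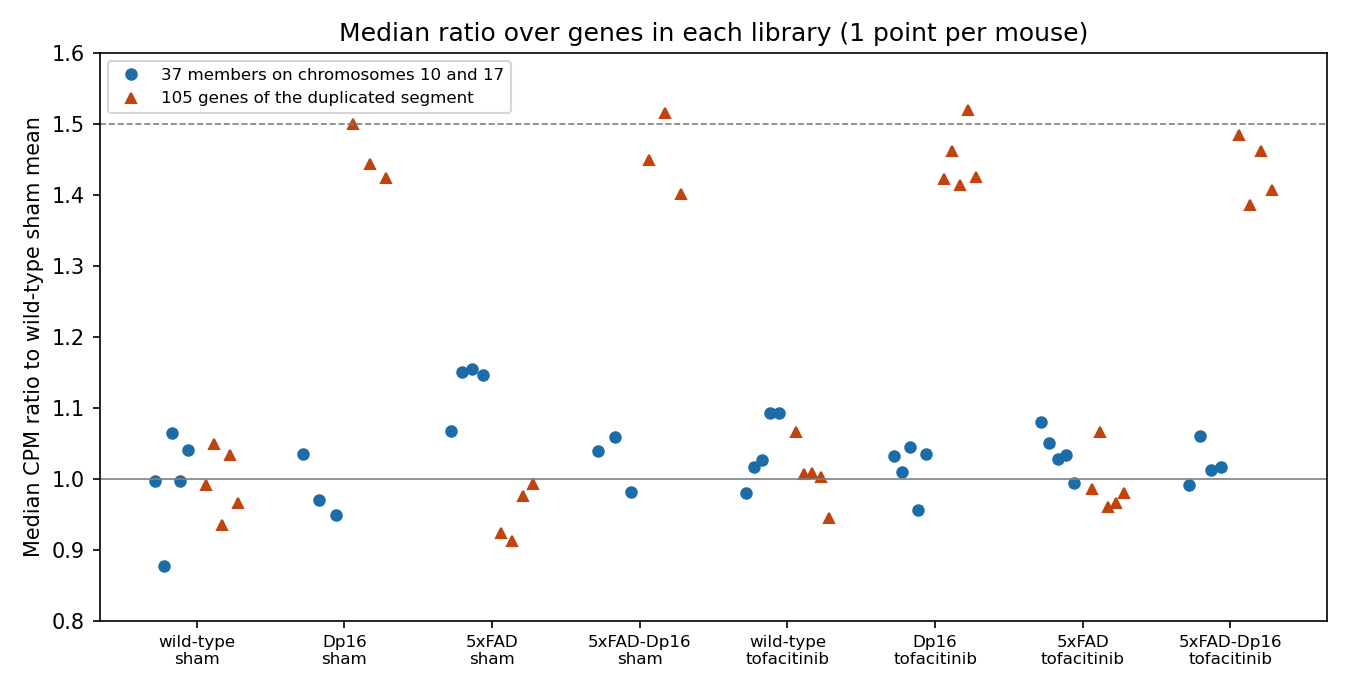
Median CPM ratio to the wild-type sham mean in each library, over the 37 members (circles) and over 105 genes of the duplicated segment (triangles), by group; 1 point per mouse, with lines at ratios of 1 and 1.5. The member medians of carriers lie between 0.949 and 1.06, while the segment medians of carriers lie between 1.39 and 1.52, above those of every non-carrier.

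Carriers were compared with non-carriers in 4 settings that share no libraries, with an edgeR quasi-likelihood fit over 17632 genes and p-values adjusted over all of them by Benjamini-Hochberg; a gene was called at an adjusted p under 0.05. In sham mice without 5xFAD, 17 members were higher and 20 lower in Dp16, with a median log2 difference of -0.03, and 0 were called (edgeR) against 0.21% of all genes. DESeq2 and limma-voom also called 0, and 2 members had an unadjusted edgeR p under 0.05, Cbs and Col6a1. In sham mice with 5xFAD, 10 were higher and 27 lower (median -0.10), and 0 were called by edgeR against 0.102% of all genes. There, DESeq2 called 0, limma-voom called Sik1, and 2 members had an unadjusted p under 0.05, Cbs and Sik1.

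In tofacitinib mice without 5xFAD, 15 members were higher and 22 lower (median -0.04), and Cbs was called, lower in Dp16; the call rate over all genes was 0.25%. In tofacitinib mice with 5xFAD, 18 were higher and 19 lower (median -0.03), and 0 were called by edgeR against 0.238% of all genes. Cbs lay just outside the threshold there (adjusted p = 0.0549), DESeq2 and limma-voom called it, and Rrp1 and U2af1 were the other members with an unadjusted p under 0.05. The segment genes had medians of 0.54, 0.59, 0.56 and 0.51 in the 4 settings in the order given.

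Averaged over the 4 settings, 12 members were higher and 25 lower in carriers, with a median of -0.03 against 0.0044 over all genes. The call rate over all genes was 2.14% (378 genes, 206 higher and 172 lower), and edgeR called 1 member of 37, Cbs, a share near that rate. DESeq2 called 1 member and 530 genes in all, and limma-voom called 8 members and 1760 of the 17632 genes. The limma-voom calls were Abcg1, Cbs, Rrp1, Rrp1b and Sik1, lower, and Icosl, S100b and Wdr4, higher. An unadjusted p under 0.05 was found for 8 members, or 21.6%, against 13.7% of all genes. In contrast, 69 of the 105 segment genes were called and 103 were higher. The 14 other tested genes that lie between the members on chromosomes 10 and 17 had a median of -0.04, and 0 of them were called by edgeR, with 1 at an unadjusted p under 0.05.

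The data bounded how large a rise in the members could be. The 95% interval of the averaged carrier difference ended below a 1.5-fold rise, the ratio of 3 gene copies to 2, for 36 of 37 members. The exception was Icosl, whose upper bound was 0.61 on the log2 scale. Within the single settings 30, 35, 33 and 35 members had upper bounds below that ratio. Direction was shared by all 4 settings for 10 members. Abcg1, Cbs, Dip2a, Pcbp3, Rrp1, Rrp1b, U2af1 and Ube2g2 were lower in each, which is 21.6% of members against 11.3% of all genes, and S100b and Wdr4 were higher in each, 5.41% against 11.6%.

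**Figure D2:**
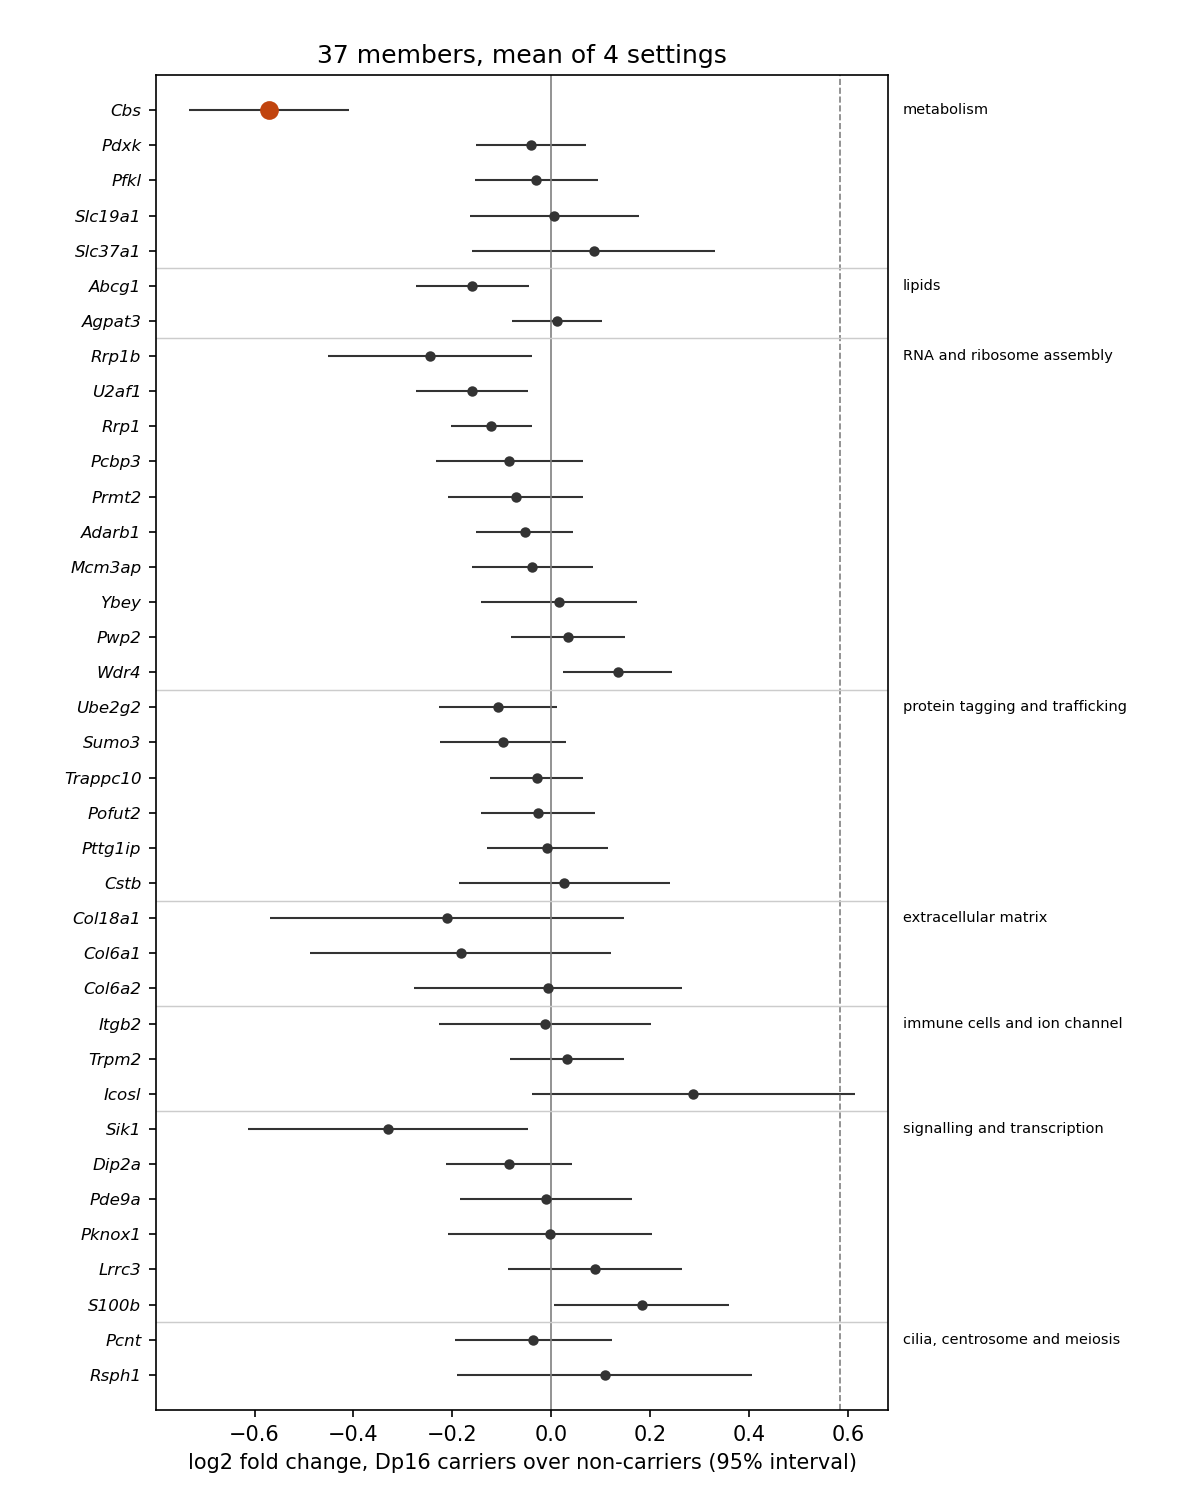
Log2 fold change of Dp16 carriers over non-carriers, averaged over the 4 settings, with its 95% interval for each of the 37 members, ordered by role; the dashed line marks a 1.5-fold rise and the larger coloured point the member called. Cbs stands at -0.57 with its interval below 0, and the interval of 1 member, Icosl, reaches past the dashed line.

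Among the metabolic members Cbs was lower in carriers. Cbs (ENSMUSG00000024039.15, chromosome 17, 31608894 to 31637238, minus strand) encodes cystathionine β-synthase, which joins homocysteine to serine as the opening step of transsulfuration; in brain it is found mainly in astrocytes. Its promoter is shown because Cbs was the one member called in carriers. RefSeq on GRCm38.p6 had promoter entries for 29 of the 39 members. The 300 bases printed run from 250 before to 50 after the annotated start, chr17:31637156-31637455, minus strand, 5′ to 3′, and 66.7% of them are G or C. Capitals mark matches on either strand to the GC box GGGCGG (complement CCGCCC), the CCAAT box CCAAT (complement ATTGG) and the E-box CACGTG, and no 2 matches overlap.
Cbs: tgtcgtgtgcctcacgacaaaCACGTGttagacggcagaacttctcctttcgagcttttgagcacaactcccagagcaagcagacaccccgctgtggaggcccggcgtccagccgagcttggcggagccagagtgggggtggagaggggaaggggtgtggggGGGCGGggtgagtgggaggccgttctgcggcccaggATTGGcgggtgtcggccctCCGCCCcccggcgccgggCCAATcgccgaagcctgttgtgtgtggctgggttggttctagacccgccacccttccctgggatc
The window holds 2 GC box, 2 CCAAT box and 1 E-box matches. The same letters occur in 35.7%, 37.4% and 7.15% of 32851 promoter windows of the same length, and a match describes the letters only. The last 30 bases of the window were found in 3 of 12 annotated Cbs transcripts.

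In sham mice Cbs stood at 16.9, 16.5, 29.2, 25.5 and 30.8 CPM in the 5 wild-type libraries and at 15.02, 13.6 and 16.2 in the 3 Dp16 libraries. With 5xFAD it stood at 22.7, 32.1, 29.3 and 28.5 in 4 libraries, and at 15.6, 21.5 and 23.3 in the 3 libraries that also carried Dp16. All Dp16 sham values were below all wild-type sham values, while in 5xFAD the highest carrier passed the lowest non-carrier. Under tofacitinib the wild-type mice had 18.1, 28.2, 36.4, 30.9 and 31.2 CPM and the Dp16 mice 14.2, 15.9, 17.2, 14.8 and 19.8. The 5xFAD tofacitinib mice had 30.4, 27.5, 27.7, 27.01 and 29.96 CPM, and those with Dp16 had 20.1, 13.9, 17.7 and 21.1. With tofacitinib the 5xFAD groups did not overlap, and 1 wild-type mouse, at 18.1 CPM, lay within the Dp16 range.

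The fitted log2 differences of Cbs were -0.56 (SE 0.164, adjusted p = 0.234) and -0.35 (SE 0.167, adjusted p = 1.00) in sham mice without and with 5xFAD. Under tofacitinib they were -0.74 (SE 0.139, adjusted p = 0.00564) and -0.63 (SE 0.145, adjusted p = 0.0549). Averaged, Cbs fell by 0.57 on the log2 scale (SE 0.0792, edgeR adjusted p = 1.43e-05), a 1.49-fold lower level with a 95% interval of 0.602 to 0.753 for the ratio. Without wild-type sham 2 and 5xFAD tofacitinib 2 the value was -0.59 (adjusted p = 1.52e-05), and the call held with each of the 34 libraries left out in turn.

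Cbs also differed in level between the sexes, which are unevenly spread over the groups. The 6 male carriers lay at 14.8 to 23.3 CPM (median 18.8) and the 12 male non-carriers at 25.5 to 36.4 (median 29.6), without overlap. The 9 female carriers lay at 13.6 to 21.5 CPM (median 15.6) and the 7 female non-carriers at 16.5 to 30.4 (median 22.7), with overlap. Fits on each sex alone, added after the values were seen, gave -0.66 in males (edgeR adjusted p = 3.99e-04) and -0.46 in females (adjusted p = 0.343). The test of the difference between these effects, an interaction of duplication and sex also added later, gave 0.20 (SE 0.153, adjusted p = 0.737). The interaction with 5xFAD (0.16) and that with tofacitinib (-0.23) had an unadjusted p above 0.05.

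**Figure D3:**
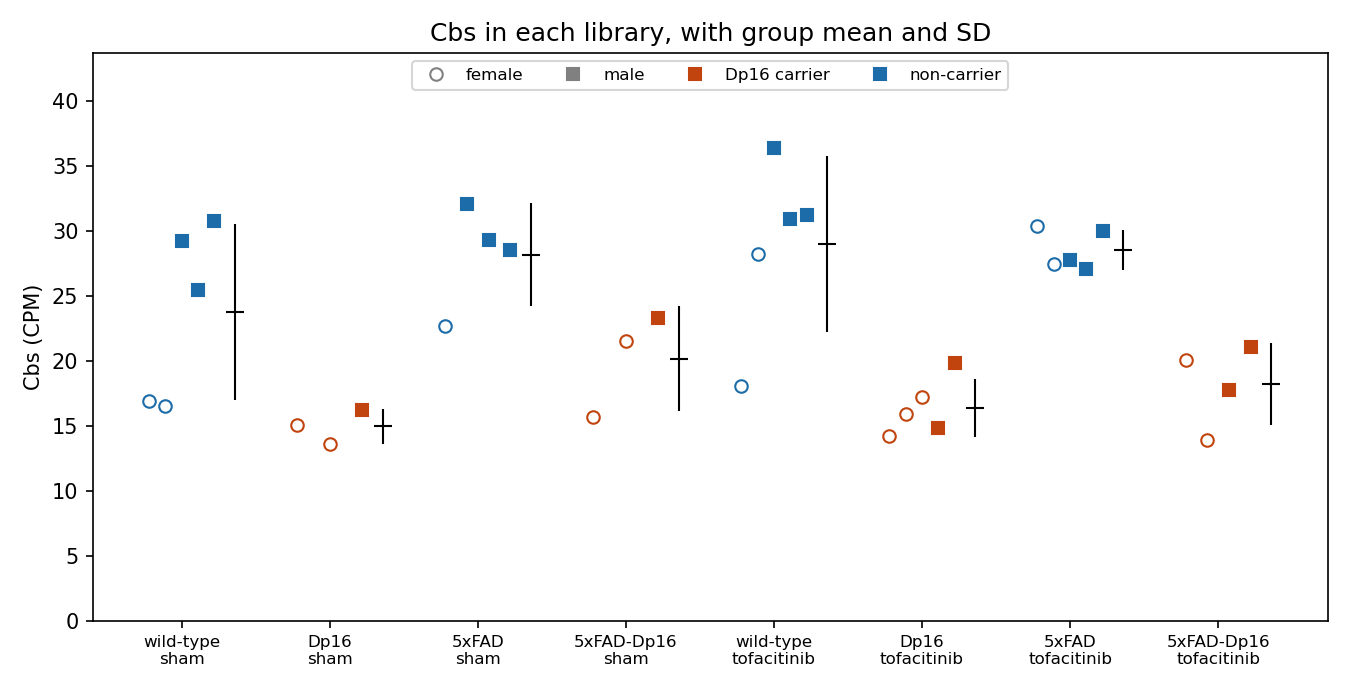
Cbs level in CPM in each library by group, with Dp16 carriers and non-carriers in different colours, open circles for females and filled squares for males; bars give the mean and SD of a group. The 6 male carriers lie at or below 23.3 CPM and the 12 male non-carriers at or above 25.5.

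The other genes of the one-carbon and transsulfuration list showed no shared direction. Of 25 listed 24 were tested, 11 were higher and 13 lower in carriers, with a median of -0.01, and Gclc was called. Gclc, a subunit of the enzyme that begins glutathione synthesis, was at 44.8 ± 3.57 CPM in carriers (SD, n = 15) and 51.2 ± 3.45 in non-carriers (n = 19), and fell by 0.19 (SE 0.0420, edgeR adjusted p = 0.0121). Cth, which acts directly after Cbs and makes cysteine, was at 3.98 ± 0.838 CPM and 3.44 ± 0.854 (log2 difference 0.21, adjusted p = 0.515). Ahcy, which releases homocysteine (-0.13), was not called. Astrocyte markers, whose cells hold Cbs, had a summed level of 6979 to 9346 CPM in carriers and 6628 to 9814 in non-carriers. Of 10 astrocyte markers 6 were higher and the median difference was 0.01. Clu was called among them (fell by 0.23, adjusted p = 0.00296), while Aqp4, Aldh1l1, Slc1a3 and Gfap lay between -0.01 and 0.06. Markers of other cells and regions differed as well. Of 9 striatum markers 9 were lower in carriers (median -0.57, 0 called by edgeR). An unadjusted p under 0.05 was found for 8 of them, against 13.7% of all genes. Of 10 oligodendrocyte markers 9 were lower (median -0.19), with Cnp (-0.25) and Ermn (-0.39) called. The summed oligodendrocyte level was 5691 to 10054 CPM in carriers and 5949 to 14469 in non-carriers, the highest in a mouse with 5xFAD. Their part in the Cbs value was not tested. In a tissue library fewer cells of a type cannot be told apart from less RNA per cell.

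The other metabolic members showed no call in carriers. Pdxk, the kinase that forms the vitamin B6 cofactor used by Cbs, had group means of 155 ± 20.3 in wild-type, 149 ± 9.95 in Dp16, 177 ± 10.6 in 5xFAD and 167 ± 11.3 in 5xFAD-Dp16 among sham mice, and 181 ± 21.4, 156 ± 12.98, 154 ± 20.96 and 170.3 ± 15.1 in the same order under tofacitinib (CPM, SD). Pdxp, a phosphatase of the same cofactor, differed by -0.01 on the log2 scale and was not called. Pfkl, the liver form of phosphofructokinase, was at 133 ± 19.3 in wild-type, 140.3 ± 19.3 in Dp16, 166 ± 9.85 in 5xFAD and 155 ± 12.9 in 5xFAD-Dp16 among sham mice, and 147 ± 14.3, 141 ± 17.2, 147 ± 18.8 and 142 ± 15.8 in the same order under tofacitinib (CPM, SD). Of 15 other glycolysis genes 5 were higher and 10 lower in carriers, and 0 were called by edgeR, with 3 at an unadjusted p under 0.05. Slc19a1, the reduced folate carrier (0.01), and Slc37a1, a glucose 6-phosphate transporter (0.09), had intervals that included 0.

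Of the lipid members, Abcg1 exports sterols from cells and Agpat3 acylates lysophosphatidic acid. Abcg1 stood at 65.7 ± 9.01 in wild-type, 61.8 ± 4.25 in Dp16, 81.6 ± 4.80 in 5xFAD and 71.96 ± 5.79 in 5xFAD-Dp16 among sham mice, and 75.2 ± 6.83, 64.7 ± 7.44, 72.3 ± 8.32 and 64.8 ± 6.14 in the same order under tofacitinib (CPM, SD). Its averaged log2 difference was -0.16 (SE 0.0558, edgeR adjusted p = 0.152), with carriers at 52.5 to 78.6 CPM and non-carriers at 57.0 to 85.9. Without wild-type sham 2 and 5xFAD tofacitinib 2 it passed the threshold (-0.20, adjusted p = 0.0333). Agpat3 differed by 0.01. Of 13 other sterol efflux and acyltransferase genes 6 were higher, 7 lower and 0 called by edgeR (5 at an unadjusted p under 0.05), with Abca1 at -0.18 and Apoe at -0.13.

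The RNA and ribosome members lay lower in carriers for 7 of 10, near the share over all members, 25 of 37, and 0 were called by edgeR. Of the 10, 4 had an unadjusted p under 0.05, against 13.7% of all genes. U2af1, the splicing factor subunit that reads the end of the intron, stood at 47.99 ± 5.20 in wild-type, 44.8 ± 5.04 in Dp16, 43.3 ± 4.29 in 5xFAD and 38.04 ± 3.86 in 5xFAD-Dp16 among sham mice, and 44.7 ± 4.64, 42.8 ± 4.26, 47.98 ± 5.21 and 39.03 ± 3.57 in the same order under tofacitinib (CPM, SD). It differed by -0.16 (SE 0.0558, adjusted p = 0.149). Rrp1, a nucleolar protein of ribosome assembly and the most abundant member per kilobase, was at 295 to 370 CPM in carriers (median 341) and 293 to 399 in non-carriers (median 373). The lowest non-carrier was 5xFAD tofacitinib 2; the difference was -0.12 (SE 0.0401, adjusted p = 0.123), and without that library alone -0.15 (adjusted p = 0.0110). Its paralog Rrp1b stood at 6.24 ± 1.99 in wild-type, 4.52 ± 1.94 in Dp16, 6.18 ± 0.896 in 5xFAD and 5.24 ± 0.379 in 5xFAD-Dp16 among sham mice, and 5.26 ± 0.748, 4.40 ± 0.713, 5.97 ± 0.475 and 5.10 ± 0.639 in the same order under tofacitinib (CPM, SD), and differed by -0.25 (SE 0.101, adjusted p = 0.250). Rrp1b overlaps exons of Hsf2bp on the opposite strand, and the strand setting of the counting is not given in the sources used here.

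Wdr4, a partner of the enzyme that methylates transfer RNA, was the RNA member that lay higher in all settings, at 20.7 to 25.7 CPM in carriers and 16.2 to 24.5 in non-carriers (0.13, SE 0.0543, adjusted p = 0.235). Adarb1, the deaminase that edits glutamate receptor messages, had group means of 185 ± 17.9 in wild-type, 181 ± 10.7 in Dp16, 218 ± 11.4 in 5xFAD and 202 ± 10.96 in 5xFAD-Dp16 among sham mice, and 209.8 ± 22.8, 193 ± 15.96, 198 ± 22.9 and 207 ± 10.4 in the same order under tofacitinib (CPM, SD), and differed by -0.05. Pcbp3, a poly-C binding protein (-0.09), the processome protein Pwp2 (0.03), the mitochondrial ribonuclease Ybey (0.02), the messenger RNA export factor Mcm3ap (-0.04) and the arginine methyltransferase Prmt2 (-0.07) had intervals that included 0. Ybey and Mcm3ap share exon bases on opposite strands, and 17 members in all share some with another annotated gene.

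Genes that work with these members were measured as well. Of 21 other ribosome assembly genes 5 were higher and 16 lower in carriers, with a median of -0.05, and 2 were called. Fbl, which methylates ribosomal RNA, fell by 0.31 (SE 0.0514, edgeR adjusted p = 2.90e-04), and Ncl, nucleolin, fell by 0.17 (SE 0.0452, adjusted p = 0.0329). Of 13 editing and splice site genes 2 were higher and 11 lower, and 0 were called by edgeR, with 3 at an unadjusted p under 0.05. U2af2, the partner subunit of U2af1, differed by -0.10 (adjusted p = 0.155).

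Of the 6 members of protein tagging and trafficking, 5 lay lower and 0 were called by edgeR in carriers, with 0 at an unadjusted p under 0.05. Sumo3, a ubiquitin-like modifier, stood at 151 ± 18.1 in wild-type, 133 ± 17.2 in Dp16, 122 ± 11.9 in 5xFAD and 112 ± 9.57 in 5xFAD-Dp16 among sham mice, and 131 ± 21.7, 134 ± 17.7, 136 ± 18.7 and 122 ± 5.93 in the same order under tofacitinib (CPM, SD), and differed by -0.10 (adjusted p = 0.517). Ube2g2, a conjugating enzyme of protein degradation at the endoplasmic reticulum, differed by -0.11 and was lower in all settings. Cstb, an inhibitor of cathepsins whose loss causes a myoclonic epilepsy, had group means of 27.4 ± 5.31 in wild-type, 23.4 ± 3.25 in Dp16, 18.3 ± 1.43 in 5xFAD and 20.1 ± 1.78 in 5xFAD-Dp16 among sham mice, and 22.2 ± 6.97, 26.5 ± 6.13, 24.3 ± 6.16 and 24.97 ± 6.04 in the same order under tofacitinib (CPM, SD), with a difference of 0.03. Trappc10, a subunit of a vesicle tethering complex (-0.03), Pofut2, which adds fucose to secreted proteins (-0.03), and Pttg1ip, a securin-binding protein (-0.01), lay close to 0. Among their partners 0 of 22 SUMO and degradation genes, 0 of 9 cathepsins and cystatins and 0 of 13 TRAPP subunits were called by edgeR, with 1, 2 and 2 at an unadjusted p under 0.05. Sumo3 and Ube2g2 both share exon bases with the gene Gm49325 on their own strand, so reads there cannot be told apart.

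The matrix members were low and variable. Col6a1, a chain of collagen VI, stood at 8.22 ± 1.37 in wild-type, 5.24 ± 1.84 in Dp16, 7.48 ± 1.39 in 5xFAD and 7.06 ± 2.98 in 5xFAD-Dp16 among sham mice, and 6.27 ± 2.53, 6.22 ± 1.05, 6.38 ± 1.16 and 6.64 ± 2.09 in the same order under tofacitinib (CPM, SD). In sham mice without 5xFAD its log2 difference was -0.66 (SE 0.309, adjusted p = 0.649), and the 3 Dp16 values (6.05, 6.53 and 3.13 CPM) lay below all 5 wild-type values (6.99 to 10.6). In the other settings it differed by -0.10, -0.02 and 0.05, and the averaged value was -0.18 (SE 0.149, adjusted p = 0.644). Its partner chain Col6a2 was at 5.84 ± 1.98 in wild-type, 6.39 ± 1.75 in Dp16, 7.41 ± 1.84 in 5xFAD and 6.02 ± 1.56 in 5xFAD-Dp16 among sham mice, and 5.68 ± 1.59, 6.31 ± 1.64, 6.51 ± 1.37 and 6.37 ± 1.18 in the same order under tofacitinib (CPM, SD), with an averaged difference of -0.01. Col18a1, a basement membrane collagen, was at 3.38 ± 0.374 in wild-type, 3.95 ± 1.75 in Dp16, 3.87 ± 0.439 in 5xFAD and 2.91 ± 0.724 in 5xFAD-Dp16 among sham mice, and 3.997 ± 1.72, 3.23 ± 1.06, 3.83 ± 1.88 and 3.24 ± 0.639 in the same order under tofacitinib (CPM, SD), with a difference of -0.21 (SE 0.175, adjusted p = 0.653). Of 17 other collagen VI and basement membrane genes 12 were higher and 0 were called by edgeR, with 2 at an unadjusted p under 0.05. Fibroblast markers had a summed level of 38.5 to 87.3 CPM in carriers and 34.03 to 97.6 in non-carriers. Of these, 8 of 8 were higher (median 0.27, 0 called by edgeR, 2 at an unadjusted p under 0.05). Summed mural markers lay at 298 to 393 CPM in carriers and 313 to 403 in non-carriers. Summed endothelial markers lay at 394 to 498 and 371 to 530 CPM, and Cdh5 was the endothelial marker called (-0.27, edgeR adjusted p = 0.0491). The part of these cells in the matrix values was not tested.

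By edgeR no immune member was called in carriers, and 0 of the 3 had an unadjusted p under 0.05. Itgb2, the shared β chain of leukocyte integrins, differed by -0.01. Trpm2, a calcium channel gated by ADP-ribose, stood at 25.2 ± 3.03 in wild-type, 27.6 ± 4.75 in Dp16, 31.6 ± 1.37 in 5xFAD and 31.1 ± 2.57 in 5xFAD-Dp16 among sham mice, and 28.4 ± 3.22, 30.4 ± 3.49, 29.7 ± 2.45 and 29.1 ± 1.85 in the same order under tofacitinib (CPM, SD), and differed by 0.03. Icosl, a ligand that costimulates T cells, had group means of 3.11 ± 1.11 in wild-type, 4.72 ± 2.35 in Dp16, 3.75 ± 0.426 in 5xFAD and 4.68 ± 0.206 in 5xFAD-Dp16 among sham mice, and 5.25 ± 2.51, 4.997 ± 1.19, 5.05 ± 1.49 and 5.55 ± 1.70 in the same order under tofacitinib (CPM, SD). It differed by 0.29 (SE 0.160, edgeR adjusted p = 0.444) between carriers and non-carriers, with ranges of 3.21 to 7.43 and 1.37 to 9.61 CPM, and limma-voom called it. Immune cell markers differed in this comparison: of 17 microglial markers 11 were lower in carriers, with Sall1 (-0.30) and P2ry12 (-0.21) called. Of 7 tested peripheral myeloid markers 6 were higher, with Lyz2 (0.55) called. The summed microglial level was 600.5 to 884 CPM in carriers and 650.3 to 1028 in non-carriers, and the summed peripheral myeloid level 18.3 to 45.4 and 12.1 to 47.9 CPM. Their part in the values of the immune members was not tested.

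Of the 6 members of signalling and transcription, Sik1 and S100b had the largest differences. Sik1, a kinase that holds CRTC coactivators in the cytoplasm and is itself induced by neuronal activity, was at 36.1, 25.3, 29.03 and 13.97 CPM in 5xFAD sham mice and at 18.5, 20.7 and 7.15 in 5xFAD-Dp16 sham mice. The ranges overlapped, and the difference was -0.86 (SE 0.301, edgeR adjusted p = 0.888). By limma-voom it was -1.15 (adjusted p = 0.0121). With each of 34 libraries left out in turn the edgeR value ran from -1.09 to -0.49, and 0 of these fits called it. Over all groups Sik1 stood at 19.02 ± 5.17 in wild-type, 17.2 ± 0.696 in Dp16, 26.1 ± 9.25 in 5xFAD and 15.5 ± 7.28 in 5xFAD-Dp16 among sham mice, and 17.9 ± 3.59, 19.3 ± 4.67, 22.5 ± 5.12 and 18.4 ± 4.92 in the same order under tofacitinib (CPM, SD), and the averaged difference was -0.33 (SE 0.139, adjusted p = 0.260). Of 14 genes of the CRTC and activity-regulated list 14 were lower in carriers, with a median of -0.19, and Crtc2 was called (fell by 0.21, SE 0.0517, adjusted p = 0.0247). Egr1 (-0.39), Arc (-0.32) and Fos (-0.19), induced by activity, were not called. Markers of the striatum, a neighbouring region, lay lower too, as given beside Cbs, with summed levels of 394 to 1972 CPM in carriers and 549 to 2711 in non-carriers. Their part in the Sik1 values was not tested.

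S100b stood at 266 ± 21.3 in wild-type, 291 ± 41.6 in Dp16, 203 ± 27.9 in 5xFAD and 239 ± 23.8 in 5xFAD-Dp16 among sham mice, and 246 ± 46.7, 305 ± 46.7, 248 ± 88.1 and 269 ± 45.4 in the same order under tofacitinib (CPM, SD). It was higher in carriers in all 4 settings, with an averaged difference of 0.18 (SE 0.0871, edgeR adjusted p = 0.343). Its highest value, 401 CPM, came from 5xFAD tofacitinib 2, a non-carrier, and without that library the difference was 0.26 (adjusted p = 0.0387). Without wild-type sham 2 as well it was 0.27 (adjusted p = 0.0283). In males the 6 carriers lay at 228 to 371 CPM and the 12 non-carriers at 182 to 271 (0.38, adjusted p = 0.0258). In females the 9 carriers lay at 222 to 328 and the 7 non-carriers at 176 to 401 (-0.03, adjusted p = 1.00). The interaction of duplication and sex was -0.42 (SE 0.161, adjusted p = 0.737), so the difference between the sexes was not called; 4 members had an unadjusted p under 0.05 in that comparison (Col6a2, Lrrc3, S100b and U2af1), 0 members were called by edgeR, and the call rate over all genes was 0%. The other members of this role were the homeobox factor Pknox1, which is described with its neighbours on chromosome 17, the cyclic GMP phosphodiesterase Pde9a (-0.01), the leucine-rich repeat gene Lrrc3 (0.09) and Dip2a (-0.09).

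Of the centrosome and cilium members, Pcnt had group means of 32.1 ± 3.75 in wild-type, 31.5 ± 5.07 in Dp16, 45.1 ± 5.69 in 5xFAD and 43.5 ± 3.74 in 5xFAD-Dp16 among sham mice, and 42.1 ± 8.43, 34.2 ± 2.87, 36.97 ± 9.14 and 39.7 ± 4.82 in the same order under tofacitinib (CPM, SD), and differed by -0.04 in carriers. Rsph1, a protein of the radial spokes of motile cilia, differed by 0.11. Ependymal markers, from the ciliated lining of the ventricles, had summed levels of 26.6 to 51.7 CPM in carriers and 25.5 to 64.8 in non-carriers. Of 9 other genes of the pericentriolar material 3 were higher and 0 were called by edgeR, with 0 at an unadjusted p under 0.05.

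By position, 6 of the 10 tested members on chromosome 17 had an unadjusted p under 0.05 in the averaged comparison, and 2 of the 27 on chromosome 10. The share over all genes was 13.7%, and this split was looked at after the values were seen. On chromosome 17 these members were Abcg1, Cbs, U2af1, Sik1 and Rrp1b, all lower, and Wdr4, higher. On chromosome 10 they were Rrp1, lower, and S100b, higher. U2af1, Rrp1b, Wdr4 and Rrp1 were also counted among the RNA members above, so these counts share genes. The medians of the members on chromosomes 17 and 10 were -0.09 and -0.03. Cbs and U2af1 are neighbours on chromosome 17. Pknox1, on the other side of Cbs, differed by 0.27, -0.20, -0.21 and 0.13 in the 4 settings.

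**Figure D4:**
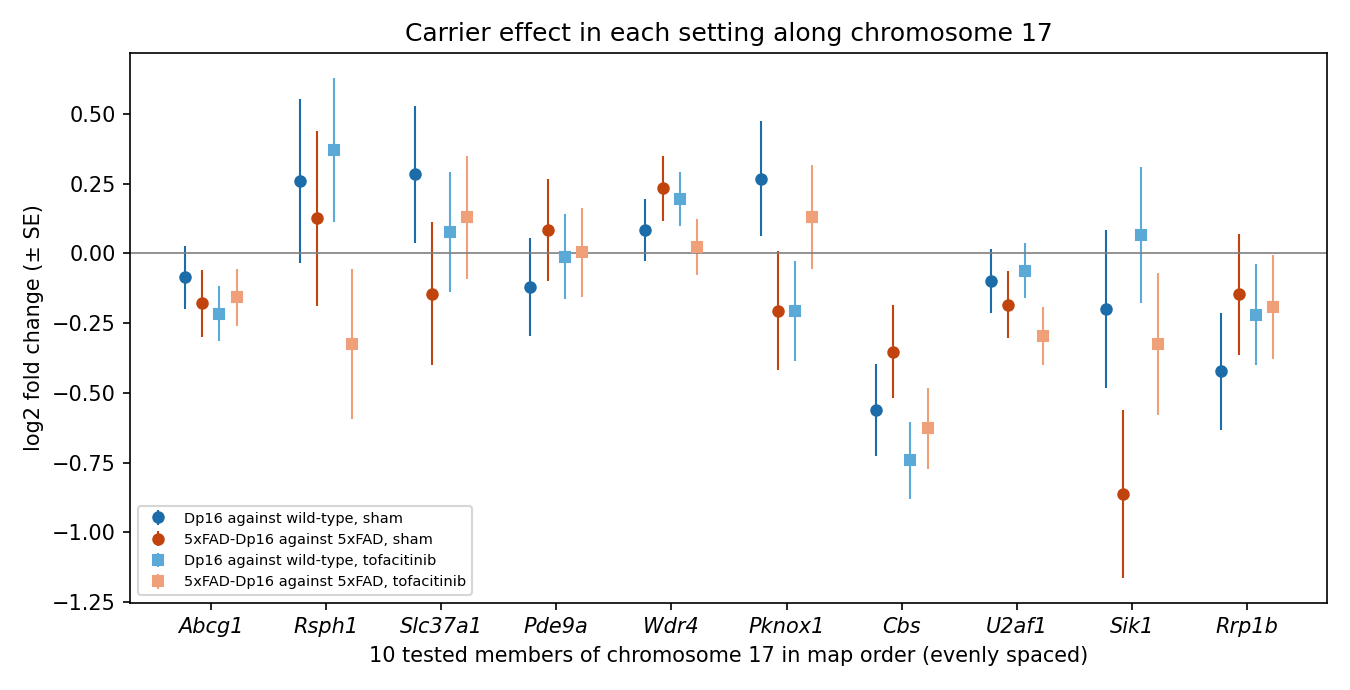
Log2 fold change with its SE for the 10 tested members of chromosome 17, evenly spaced in map order, in the 4 carrier comparisons. The values of Cbs lie between -0.74 and -0.35, and those of its neighbour Pknox1 lie on both sides of 0.

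Whether the members respond to the amyloid transgenes was asked by comparing the 16 mice with 5xFAD and the 18 without, averaged over duplication and treatment. Of 37 members 25 were higher and 12 lower, with a median of 0.08, and edgeR called Itgb2; the call rate over all genes was 0.42%. An unadjusted p under 0.05 was found for 13 members, 35.1%, against 20.3% of all genes. Across the 37 members the change followed gene length (Spearman's rho 0.62, and 0.40 across the 17632 genes), where genes share the same libraries and are not independent replicates. In the averaged carrier comparison rho was -0.20 across members and -0.13 across all genes. Its sign differed between the settings: across members it was 0.14 and -0.36 in sham mice without and with 5xFAD, and -0.52 and 0.20 under tofacitinib. Across all genes it was -0.02, -0.15, -0.31 and 0.14 in that order.

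Itgb2 (ENSMUSG00000000290.13, chromosome 10, 77530252 to 77565708, plus strand) stood at 7.24, 4.96, 8.63, 4.92 and 7.03 CPM in wild-type sham mice and at 12.1, 10.3, 8.81 and 8.45 in 5xFAD sham mice. Dp16 sham mice had 5.83, 8.44 and 6.02 CPM and 5xFAD-Dp16 sham mice 8.24, 14.1 and 7.90. In sham mice 5xFAD values lay mostly above the others, with an overlap at 7.90 to 8.63 CPM. Under tofacitinib, wild-type mice had 6.57, 6.66, 7.61, 5.46 and 7.71 CPM and 5xFAD mice 10.8, 8.69, 11.4, 8.97 and 5.91. Dp16 tofacitinib mice had 6.90, 6.92, 8.26, 6.70 and 7.54 CPM and 5xFAD-Dp16 tofacitinib mice 8.96, 6.33, 9.56 and 8.33. Over all libraries, mice with 5xFAD ranged from 5.91 to 14.1 CPM (median 8.89) and mice without from 4.92 to 8.63 (median 6.91).

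The averaged log2 difference of Itgb2 was 0.45 (SE 0.102, edgeR adjusted p = 0.0378), a 1.37-fold rise. Neither other tool called it: limma-voom gave 0.35 (adjusted p = 0.0501), and DESeq2 gave it no adjusted p, as for 12 of the 37 members. With 2 surrogate variables the adjusted p was 0.311. The edgeR call was lost with any of 17 libraries left out (adjusted p from 0.0506 to 0.134 in those fits, the last without 5xFAD-Dp16 sham 2). These were wild-type sham 1, 2 and 4, wild-type tofacitinib 1, 5xFAD sham 1, 2 and 3, 5xFAD tofacitinib 1 and 4, Dp16 sham 1, 2 and 3, Dp16 tofacitinib 2 and 4, 5xFAD-Dp16 sham 2, and 5xFAD-Dp16 tofacitinib 1 and 4. Of 17 microglial markers 15 were higher with 5xFAD, with a median of 0.18, and Cst7, Clec7a, Cd68 and Csf1r were called. Their summed level was 699 to 1028 CPM with 5xFAD and 600 to 853 without, and 0 of the 17 were at 0 in every library. Of 7 tested markers of peripheral myeloid cells, which also make Itgb2, 5 were higher and 0 were called by edgeR, with 0 at an unadjusted p under 0.05 and summed levels of 13.1 to 47.9 CPM with 5xFAD and 12.1 to 34.3 without. Itgax, an α chain that pairs with Itgb2, rose 4.91-fold (adjusted p = 0.00196), from 0.292 ± 0.250 CPM (SD, n = 18) to 1.40 ± 0.978 (n = 16). Itgam, another α chain, differed by -0.02. The part of these cells in the Itgb2 value was not tested.

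**Figure D5:**
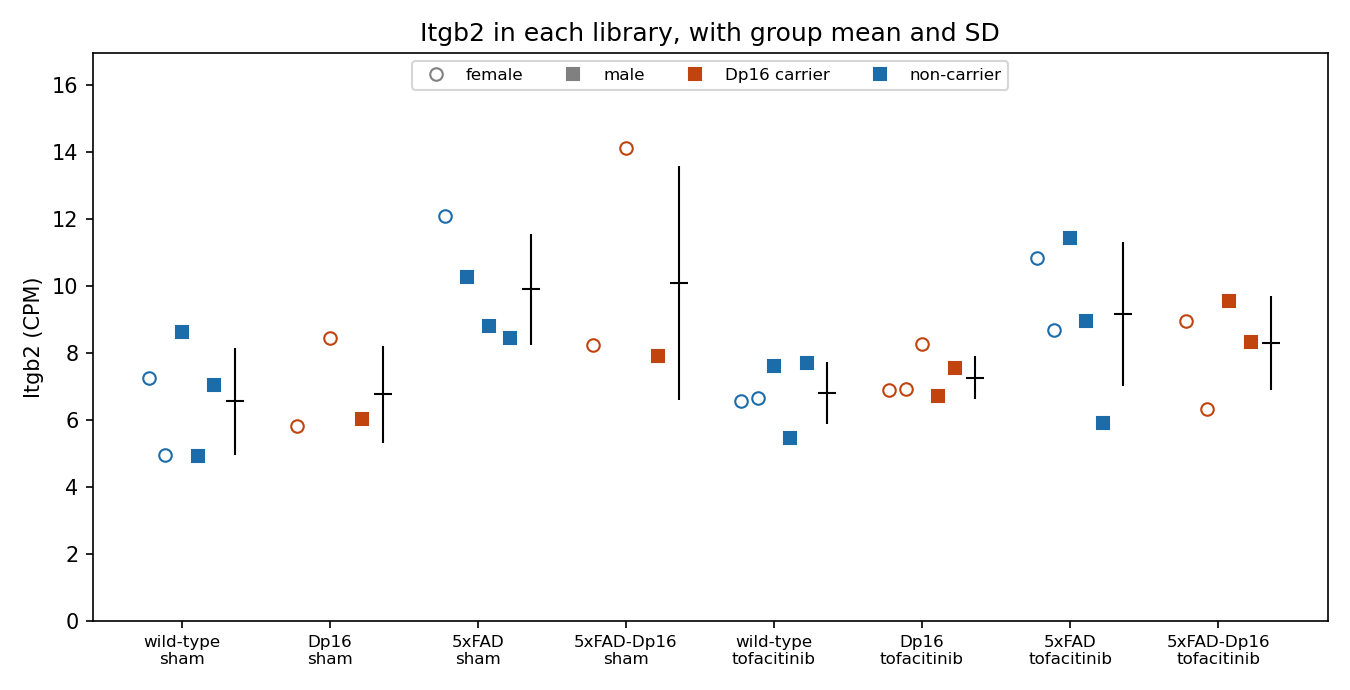
Itgb2 level in CPM in each library by group, with carriers and non-carriers of Dp16 in different colours, open circles for females and filled squares for males; bars give the mean and SD of a group. The 4 5xFAD sham mice lie at 8.45 to 12.1 CPM and the 5 wild-type sham mice at 4.92 to 8.63.

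Other members differed between mice with and without 5xFAD without an edgeR call, and these differences went with gene length. Those named here as higher, Pcnt, Dip2a and Cbs, have lengths of 9.395, 6.698 and 6.265 kb. Those named as lower, Ube2g2, S100b and Sumo3, have 2.031, 1.484 and 3.14 kb. The same trend ran over all genes (rho 0.40), and its cause was not tested. Pcnt, one of the members with the longest gene length, was at 26.3 to 51.1 CPM with 5xFAD (median 39.6) and 27.3 to 48.9 without (median 34.7) (0.24, adjusted p = 0.111). Dip2a differed by 0.19 (adjusted p = 0.114). Ube2g2 lay lower, at 51.1 to 67.1 CPM against 54.7 to 85.6 (-0.22, adjusted p = 0.0661), as did S100b (-0.21, adjusted p = 0.181) and Sumo3 (-0.16, adjusted p = 0.152). DESeq2 called Pcnt (adjusted p = 0.0455), Ube2g2 (0.0141) and Dip2a, and limma-voom called Pcnt (0.0315), Ube2g2 (0.0330) and S100b (0.0282). Both tools also called many more genes over all genes than edgeR did. Their counts are given in the last paragraph, and the edgeR rate of 0.42% does not apply to them. Without 5xFAD tofacitinib 2, edgeR called Pcnt (adjusted p = 0.0487), S100b (0.0463) and Ube2g2 (0.0460) beside Itgb2. The count over all genes is not given here for that fit. The alternative fits included a fit with the length trend removed. Across these fits, single libraries left out aside, Pcnt differed by 0.08 to 0.30 and S100b by -0.28 to -0.08. Ube2g2 differed by -0.23 to -0.12 and Sumo3 by -0.20 to -0.02 in the same fits. Cbs lay higher with 5xFAD (0.19, adjusted p = 0.164). Of the partner lists, the cathepsins Ctsd (0.31, adjusted p = 0.0104) and Ctsz (0.28, adjusted p = 0.0329) rose, as did the lipid regulator Srebf1 (0.25, adjusted p = 0.0497), and the splice site factor Zrsr2 fell by 0.18 (adjusted p = 0.0465). Of 17 collagen VI and basement membrane genes 16 were higher and 0 were called by edgeR, with 6 at an unadjusted p under 0.05.

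No member was called for tofacitinib or for sex. Between tofacitinib and sham mice 21 members were higher and 16 lower (median 0.01), and 0 were called by edgeR, DESeq2 or limma-voom against 0% of all genes. Icosl was the member with an unadjusted p under 0.05 (0.37, SE 0.157, adjusted p = 0.935), with wild-type sham 1 the lowest library at 1.37 CPM and wild-type tofacitinib 3 the highest at 9.61. Between females and males 16 were higher in females and 21 lower, and 0 were called by edgeR against 0.0624% of all genes. Cbs (-0.31, adjusted p = 0.221), Lrrc3 (-0.19) and Rrp1b (-0.21) had an unadjusted p under 0.05, and of the other tools DESeq2 called 0 members and limma-voom called Cbs (-0.34, adjusted p = 0.0207).

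No member was called for an interaction of the duplication with another factor. For the interaction with 5xFAD, 0 members were called by edgeR, DESeq2 or limma-voom, with 0, 1 and 4 at an unadjusted p under 0.05, and 0.00567% of all genes were called. For the interaction with tofacitinib 0 were called by any of these tools, with 0, 0 and 1 at an unadjusted p under 0.05, and 0% of all genes were called. The intervals were wide: that of Col6a1 reached 0.90 for the interaction with 5xFAD and 0.98 for that with tofacitinib.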

How the data were processed

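The deposited gene counts of 34 cortex libraries were used. Per the submitters' processing notes, which give no role or order, the authors used HTSeq 0.6.1, HISAT2 2.1.0, FastQC 0.11.5, bcl2fastq and SAMtools 1.5, and the build GRCm38; parameters are not given in the sources used here. Gene lengths were taken as implied by the deposited counts and RPKM values, by the median over libraries. RPKM values recomputed from counts and these lengths matched those deposited (713471 values, largest relative difference 7.13e-14). The RPKM values were not used further. The design text gives 6 tofacitinib 5xFAD and 4 sham 5xFAD-Dp16 mice, of which 5 and 3 were analysed here.

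Genes passing filterByExpr (17632) were fitted in edgeR 4.0.16 (R 4.3.3) by quasi-likelihood with TMM scaling, 8 groups and sex, over all libraries; CPM values are TMM-scaled. Benjamini-Hochberg adjustment ran over all genes. The same fit was also run on counts simulated with the means and dispersions of these data, with results not given here. Alternatives used DESeq2 1.42.0, limma 3.58.1 (voom with sample weights) and sva 3.50.0, other filters and scalings, and libraries left out.

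Every member is named; 18 get values per group: members called by edgeR, the 6 largest averaged carrier differences and a listed panel. Partner genes named are mainly those called; Cth, Ahcy, Pdxp, Abca1, Apoe, U2af2, Egr1, Arc, Fos, Itgam and the named astrocyte markers not called were added after their values were seen. Members and lists were chosen with earlier results of these data known. The p-values set differences against the spread between mice within groups and treat the mice as independent. The labels do not say how mice were related, and with related mice the p-values could be too small.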

Additional observations from a re-analysis of the deposited data

Results flagged for a closer look

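A library was looked for that lay far from the others of its own group, by the gap to its nearest neighbour over the range of the group (Dixon's criterion at 95%). Of 114 groups tested 11 held one, and chance alone gives about 1 in 20. Of these, 3 came from 5xFAD tofacitinib 1, in which Pdxk stood at 191.0 CPM (others 142 to 151), Trpm2 at 33.9 (27.6 to 29.4) and Sumo3 at 103 (137 to 149). S100b stood at 401 CPM in 5xFAD tofacitinib 2, against 176 to 227 in the others. Col6a1 was at 10.6 CPM in wild-type sham 4 (others 6.99 to 8.005) and at 5.39 in 5xFAD sham 2 (8.10 to 8.27). Icosl was at 9.61 CPM in wild-type tofacitinib 3 (3.36 to 5.00) and at 3.11 in 5xFAD sham 1 (3.88 to 4.03). Cstb stood at 34.5 CPM in wild-type tofacitinib 1 (17.8 to 21.1), and Sumo3 at 165 in Dp16 tofacitinib 4 (122 to 132). The median ratio of the members was 1.07 in 5xFAD sham 1, against 1.15 in the other 5xFAD sham mice.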

How the results depend on the processing

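The members' median differences in the 5 carrier comparisons moved by less than the spread between libraries under every alternative run. Counts of called members moved as follows, and their cause was not tested. For Dp16 against wild-type sham mice 2 surrogate variables called 1 member (Cbs) and 155 genes in all, against 37 in edgeR. For 5xFAD-Dp16 against 5xFAD sham mice limma-voom and the fit without a low-count filter each called 1 (Sik1), and 182 and 145 genes in all against 18. For Dp16 against wild-type tofacitinib mice 0 were called in a fit of those groups alone (Cbs -0.74, adjusted p = 0.193), which has fewer samples and called 13 genes in all against 44. For 5xFAD-Dp16 against 5xFAD tofacitinib mice DESeq2, limma-voom, no filter, a mean of at least 1 CPM and removal of the length trend each called 1 (Cbs), and 129, 326, 295, 50 and 75 genes in all against 42, while 2 surrogate variables called 3 and 928. With 1 library left out that count was 0 to 1, and Cbs was called without wild-type sham 2 or 5, wild-type tofacitinib 1, Dp16 tofacitinib 4 or 5xFAD-Dp16 tofacitinib 1.

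For carriers averaged over settings limma-voom called 8 members, no filter 2, 2 surrogate variables 7, the length trend removed 5, without wild-type sham 2 and 5xFAD tofacitinib 2 together 4, females alone 0 and males alone 2. Leaving out 1 library gave 1 to 3, with 3 (Cbs, Rrp1 and S100b) without 5xFAD tofacitinib 2. Counts over all genes are not given here for fits of single sexes or with 1 library left out. The member counts of those fits therefore have no share over all genes beside them. S100b reversed to -0.034 in females alone. For 5xFAD, DESeq2 and limma-voom called 3 each, without Itgb2 among them, no filter 5, 2 surrogate variables 0, the length trend removed 2, and females or males alone 0; leaving out 1 library gave 0 to 4. Ube2g2 passed without wild-type sham 3, wild-type tofacitinib 2 or 5, 5xFAD tofacitinib 2, Dp16 tofacitinib 5 or 5xFAD-Dp16 tofacitinib 3. Between the sexes limma-voom, no filter and 2 surrogate variables called 1 each (Cbs), and 18, 84 and 169 genes in all against 11. Fits of single sexes and the interaction with sex were added after seeing the data.

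Over all genes the averaged carrier comparison called 378 in edgeR, 530 in DESeq2, 1760 in limma-voom, 1746 with 2 surrogate variables, 672 with no filter, 805 with the length trend removed, 669 without the 2 libraries and 206 with the replicate block. The 5xFAD comparison called 74, and 587, 589, 19, 1358 and 358 in the same order up to the length trend, and 17 with the block. Same-numbered mice showed little shared variation, with a mean correlation of 0.00774 over 98 pairs (range -0.39 to 0.24). Of 34 libraries 9 were closest to their own number. A low mean correlation cannot settle whether these mice were related or handled together. The replicate block left the counts of called members as they were, with Cbs at -0.57 (adjusted p = 1.77e-04) on average. The groups of 3 to 5 mice and the low levels of Col6a1, Col18a1 and Icosl limit what could be detected.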
